A study of Homo sapiens with 6 samples.

Results

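The 10 genes described here encode receptors, ligands and transcriptional repressors of the Notch pathway: the receptors NOTCH1, NOTCH2 and NOTCH3, the ligands JAG1, JAG2 and DLL1, and the HES genes HES1, HES2, HES4 and HES6. They were picked by symbol, with earlier results of these data known, from the 24462 gene symbols of the deposited count tables. All 10 were among the 13605 genes with enough reads to be tested. Their transcripts were counted in LS 174T, a human colorectal adenocarcinoma cell line that makes mucins and serves as a goblet cell model. One group received propionate, a bacterial short-chain fatty acid of the gut, at 4 mM for 4 h (propionate, 3 libraries), and the other received no treatment (control, 3 libraries). Cells of both groups were at the same range of passages and in the same medium with serum, and the labels name no vehicle or sodium control. One cell line stands for the tissue, and whether the libraries are separate cultures is not stated, so that p-values here reflect library-to-library spread, which may be technical.

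In Notch signalling a ligand on one cell binds a receptor on its neighbour, and the receptor is then cut first by an ADAM protease and then by gamma-secretase. The freed intracellular domain enters the nucleus and joins the DNA-binding protein RBPJ and a Mastermind coactivator to switch on target genes, of which HES1 is the best known. In the intestinal crypt this keeps cells in the absorptive and stem cell state, because HES1 represses ATOH1, the factor that starts the secretory lineage to which goblet cells belong. HES proteins are basic helix-loop-helix factors that mostly repress transcription, and HES6 differs from the others in that mouse Hes6 counteracts Hes1.

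With propionate, transcripts of 3 of the 4 HES genes and of 1 of the 3 ligand genes were higher. HES2 was 8.49-fold higher, JAG2 was 2.79-fold higher, HES4 was 1.80-fold higher and HES1 was 1.54-fold higher, while HES6 was 1.42-fold lower (quasi-likelihood test of edgeR, p adjusted by Benjamini-Hochberg over all 13605 genes, threshold 0.05). The 3 receptor genes, JAG1 and DLL1 did not pass the test. Thus 4 of the 10 genes were higher, where 17.2% of all tested genes were higher, and 1 was lower, where 17.0% of all tested genes were lower. Together 5 of the 10 were called, against 34.2% of all tested genes. In each of these 5 genes the ranges of the propionate and control libraries did not overlap, as was so for 45.2% of all tested genes. With the replicate number as a block the counts were 4 higher and 2 lower, where 21.9% and 22.6% of all tested genes were, and the added gene was NOTCH1. The median log2 fold change was 0.08 over the 10 genes and -0.01 over all genes tested. The 10 genes and the gene lists below were chosen with earlier results of these data known. Their comparisons with all tested genes are therefore descriptions and not tests. In bulk RNA, fewer cells that express a gene and less RNA of it per cell cannot be told apart.

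The libraries held 11603288 to 12746170 reads each. Of 12 markers of colon epithelium and goblet cells 11 had more than 10 reads in every library, and the exception was KRT20. Their summed level was 5788 to 6414 CPM (read counts scaled to a common library total) in the propionate libraries and 4997 to 5794 CPM in the control libraries. The sums were 6.53 to 8.81 CPM with propionate and 3.86 to 7.84 CPM in control for 8 fibroblast markers, and 16.1 to 18.0 CPM with propionate and 13.3 to 19.2 CPM in control for 8 immune markers. For 6 endothelial markers they were 0.0785 to 0.258 CPM with propionate and 0.168 to 0.345 CPM in control. DCN, CD3D, CD3E, CDH5, VWF, KDR and CLDN5, which define these other cell types, had no read in the 6 libraries. The part of the other markers in the results was not tested. Calls over all genes moved with transcript GC content: the top GC quintile had 33.0% of its genes higher and 8.81% lower, while the bottom quintile had 8.26% higher and 22.4% lower. Of the 10 genes NOTCH1, NOTCH3, JAG2, HES4 and HES6, 5 in all, fell in the top quintile. Values after GC correction are therefore given beside the 10 genes and beside some of the other genes. GC correction was a fit with the replicate block in which each library's trend with GC content was subtracted. Fold changes of other genes given without such a value were not corrected for GC content. The correction used the whole transcript unless the last 500 bases are named.

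The sequences just upstream of the called genes are shown because the main DNA-binding protein of the pathway, RBPJ, binds sites with the core TGGGAA. The windows hold the 250 bases before the gene's start on the gene's own strand (RefSeq, GRCh38.p14, with the strand given after the coordinates), and capitals mark TGGGAA or its reverse complement TTCCCA. HES5, a Notch target and the other called HES gene, is shown beside them as a member of the same family. A match of these letters is a description and does not show that a factor is bound.
HES1 (chr3:194135898-194136147, plus strand): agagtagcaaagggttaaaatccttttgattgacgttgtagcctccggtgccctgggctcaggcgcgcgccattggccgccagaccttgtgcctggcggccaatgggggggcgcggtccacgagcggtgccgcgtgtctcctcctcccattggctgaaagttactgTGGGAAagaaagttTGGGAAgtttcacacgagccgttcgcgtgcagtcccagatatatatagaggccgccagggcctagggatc
HES4 (chr1:1000098-1000347, minus strand): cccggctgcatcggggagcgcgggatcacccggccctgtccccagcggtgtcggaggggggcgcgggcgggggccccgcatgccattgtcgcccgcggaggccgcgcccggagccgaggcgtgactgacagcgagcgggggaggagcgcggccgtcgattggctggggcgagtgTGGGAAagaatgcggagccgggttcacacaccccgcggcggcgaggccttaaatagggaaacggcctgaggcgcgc
HES5 (chr1:2530264-2530513, minus strand): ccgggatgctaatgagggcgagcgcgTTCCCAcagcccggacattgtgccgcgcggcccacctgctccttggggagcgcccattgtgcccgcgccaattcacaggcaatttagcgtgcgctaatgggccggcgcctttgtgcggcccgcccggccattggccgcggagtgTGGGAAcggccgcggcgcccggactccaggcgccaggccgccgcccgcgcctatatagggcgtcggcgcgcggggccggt
HES2 (chr1:6419920-6420169, minus strand): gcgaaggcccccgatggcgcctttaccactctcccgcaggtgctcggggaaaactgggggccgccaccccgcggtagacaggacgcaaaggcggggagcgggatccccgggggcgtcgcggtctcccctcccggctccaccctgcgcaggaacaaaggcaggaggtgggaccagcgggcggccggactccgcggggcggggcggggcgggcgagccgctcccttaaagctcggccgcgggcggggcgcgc
JAG2 (chr14:105168777-105169026, minus strand): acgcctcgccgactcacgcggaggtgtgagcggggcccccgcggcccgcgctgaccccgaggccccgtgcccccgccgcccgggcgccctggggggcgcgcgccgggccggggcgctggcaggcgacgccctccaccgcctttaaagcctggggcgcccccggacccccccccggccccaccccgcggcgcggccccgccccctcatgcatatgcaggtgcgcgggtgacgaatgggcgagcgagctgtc
HES6 (chr2:238240039-238240288, minus strand): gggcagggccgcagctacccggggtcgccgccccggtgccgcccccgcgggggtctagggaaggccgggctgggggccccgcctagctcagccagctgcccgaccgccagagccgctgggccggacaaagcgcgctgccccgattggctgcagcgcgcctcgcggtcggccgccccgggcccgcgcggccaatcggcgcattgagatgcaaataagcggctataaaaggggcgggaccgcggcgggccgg

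The HES1 window held the 6 letters in 2 places, from 84 to 79 and from 70 to 65 bases before the start. The HES4 window held them once, from 76 to 71 bases before the start. In HES5 they stood from 80 to 75 bases before the start and, on the opposite strand, from 224 to 219 bases before it. The window of NRARP, the other called Notch target outside the 10, held neither motif. Among the 9 of the 10 genes with a window in the RefSeq table, HES1 and HES4 held the motif and the other 7 did not. Of 27305 windows of the same length from all genes, 21.1% held TGGGAA on either strand and 2.92% held it at least 2 times. The longer motif GTGGGAA, which contains the shorter one, occurred in 5.46% of all windows, once in HES1, once in HES4 and 2 times in HES5. Among tested genes, TGGGAA was in the window of 17.5% of those called higher and 21.1% of those called lower, against 19.3% of all tested genes with a window.

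NOTCH1, which together with NOTCH2 acts in the stem cells of the intestinal crypt, was measured at 87.7, 76.4 and 107.0 CPM (scaled with TMM factors, as for all CPM values below) in the propionate libraries and at 96.2, 95.2 and 115.3 CPM in the control libraries. The groups overlapped, with the third library the highest in both. The log2 fold change was -0.18 (SE 0.112, edgeR adjusted p = 0.234), with the ratio between 0.752 and 1.04 at 95%. NOTCH1 was lower with propionate in all 3 pairs of libraries with the same number, and it passed the test when the replicate number was a block (log2 fold change -0.18, adjusted p = 0.0205) and when propionate library 3 was left out (-0.32, adjusted p = 0.0332). Without propionate library 2 its log2 fold change was -0.068 (adjusted p = 0.704). After GC correction its log2 fold change was -0.42 (adjusted p = 6.11e-06), so its call depends on these choices.

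NOTCH2, the second receptor of crypt cells, was at 28.5, 24.1 and 26.7 CPM in the propionate libraries and at 24.8, 18.3 and 27.4 CPM in the control libraries. These groups overlapped too, with control library 2 the lowest of the 6. Its ratio was 1.12 with a 95% interval of 0.918 to 1.38 (edgeR adjusted p = 0.377), and it passed the test in 1 of 19 alternatives, GC correction on the last 500 transcript bases (log2 fold change 0.29, adjusted p = 0.0307). On the whole transcript its log2 fold change was 0.21 (adjusted p = 0.113). NOTCH2NL is a partial copy of NOTCH2, so reads of either may have been counted under the other name. NOTCH2NL averaged 12.5 ± 0.595 CPM with propionate and 9.85 ± 1.61 CPM in control (SD, n = 3 each) and was not called (log2 fold change 0.34, edgeR adjusted p = 0.119).

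NOTCH3, best known from vascular smooth muscle, was a rare transcript in these epithelial cells, with 21, 13 and 23 reads in the propionate libraries and 26, 24 and 21 reads in the control libraries. At this depth the 95% interval of the ratio, 0.445 to 1.30, leaves room for a more than 2-fold decrease or a small increase (log2 fold change -0.39, SE 0.370, edgeR adjusted p = 0.443). After GC correction the log2 fold change of NOTCH3 was -0.65 (adjusted p = 0.187). NOTCH4, the remaining receptor gene, was too rare to be tested and had 15 reads over the propionate libraries and 41 over the control libraries, which is 0.35 times as many when each sum is divided by its library totals (exact binomial 95% interval 0.180 to 0.645, counting error only). Its reads were summed over 7 lines of that name in each table.

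**Figure D1:**
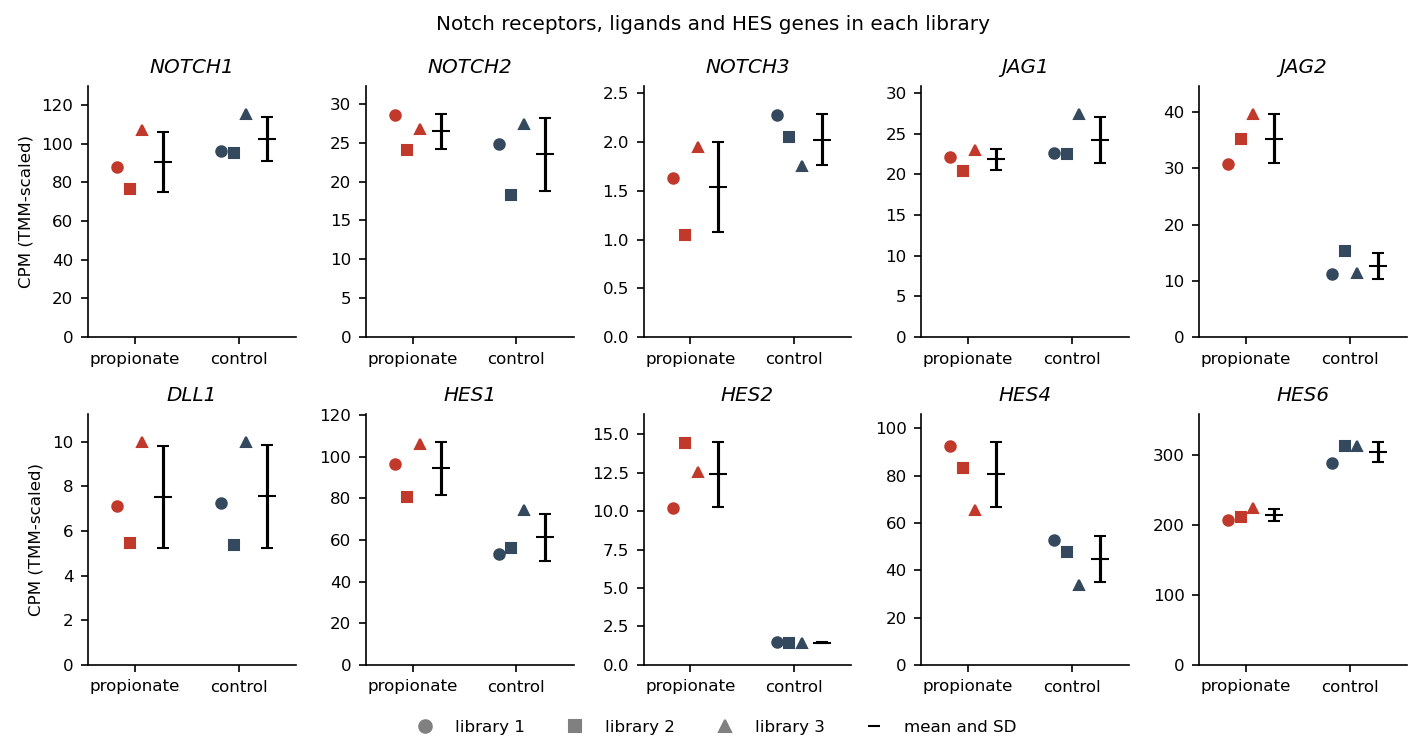
Level of each of the 10 genes in CPM scaled with TMM factors (y axis, from 0, one scale per gene) in the 3 propionate libraries (red, left) and the 3 control libraries (dark, right). Symbols give the library number and bars the mean and SD. JAG2, HES1, HES2 and HES4 lie higher and HES6 lower in every propionate library than in any control library, and the other 5 genes overlap.

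The ligands split by gene. JAG1, a Notch ligand with a role in colorectal tumours, was at 22.2, 20.4 and 22.9 CPM in the propionate libraries and at 22.6, 22.5 and 27.4 CPM in the control libraries. The groups overlapped, and the ratio was 0.904 with a 95% interval of 0.753 to 1.08 (log2 fold change -0.15, SE 0.126, edgeR adjusted p = 0.399). After GC correction its log2 fold change was -0.11 (adjusted p = 0.431).

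JAG2, the second ligand of the Jagged type, had 398, 439 and 469 reads in the propionate libraries and 129, 179 and 136 reads in the control libraries. In CPM these were 30.9, 35.3 and 39.7 with propionate and 11.3, 15.3 and 11.3 in control, and the lowest propionate library stood above the highest control library. The fold change was 2.79 (log2 fold change 1.48, SE 0.144, edgeR adjusted p = 3.29e-07) with a 95% interval of 2.26 to 3.43. JAG2 lies in the top GC quintile, and after GC correction it was 2.34-fold higher (adjusted p = 4.85e-09). Within each library, which needs no scaling between libraries, JAG2 had 1.39, 1.73 and 1.73 reads for each JAG1 read with propionate and 0.50, 0.681 and 0.413 in control. This ratio was chosen after the values were seen and was not tested.

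DLL1, a Delta-type ligand found on secretory cells of the crypt, was at 7.14, 5.47 and 9.99 CPM in the propionate libraries and at 7.26, 5.39 and 10.0 CPM in the control libraries. Library 3 was highest and library 2 lowest in both groups, and the same-numbered libraries differed by -0.02, 0.02 and -0.00 on the log2 scale. The log2 fold change was -0.01 (SE 0.243, edgeR adjusted p = 0.983), with a 95% interval of the ratio from 0.699 to 1.41, and its sign changed among the alternatives. After GC correction it was -0.15 on the whole transcript (adjusted p = 0.518) and 0.11 on the last 500 bases (adjusted p = 0.649).

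Of the ligand genes outside the 10, DLL4, the Delta ligand that acts with DLL1 in the intestinal stem cell niche, fell. It was at 4.96, 4.5 and 4.06 CPM in the propionate libraries and at 7.35, 8.30 and 12.7 CPM in the control libraries, and the groups did not overlap (2.09-fold lower, log2 fold change -1.06, SE 0.227, edgeR adjusted p = 0.00123). DLL3, a Delta-type protein that inhibits Notch signalling within the cell, was at 7.14, 7.15 and 4.91 CPM with propionate and at 4.63, 4.19 and 4.00 CPM in control. It did not pass the test (log2 fold change 0.58, adjusted p = 0.0556) but did with the replicate block (0.57, adjusted p = 0.0349). The blocked call of DLL3 was lost after GC correction on the whole transcript (0.30, adjusted p = 0.275) and held on the last 500 bases (0.56, adjusted p = 0.0379). The non-canonical ligand gene DLK1 had no read in any library.

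**Figure D2:**
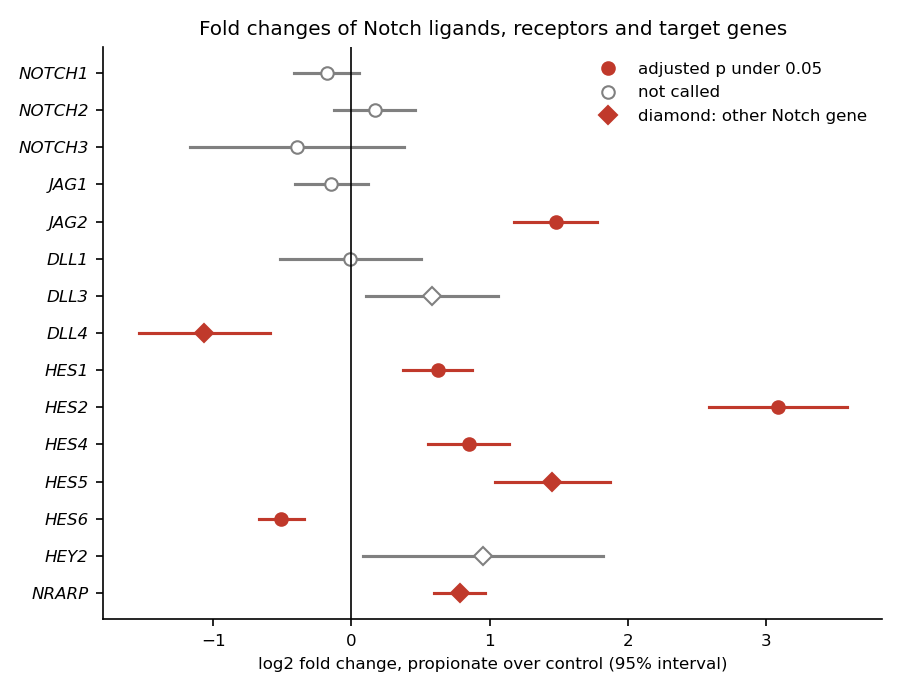
Log2 fold change of propionate over control (x axis) with its 95% interval for the 10 genes (circles) and for 5 other Notch genes (diamonds), from the edgeR fit over all 13605 genes. Filled red symbols passed an adjusted p of 0.05. HES2 stands farthest to the right at 3.09, and DLL4 at -1.06 and HES6 at -0.51 are the called genes left of 0.

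HES1, the main effector of Notch in the gut, had 1241, 1003 and 1254 reads in the propionate libraries and 608, 657 and 890 reads in the control libraries. It was at 96.3, 80.6 and 106.1 CPM with propionate and at 53.2, 56.2 and 74.2 CPM in control. The groups did not overlap, and control library 3 came closest to the propionate libraries. HES1 was 1.54-fold higher (log2 fold change 0.62, SE 0.121, edgeR adjusted p = 0.000512), with a 95% interval of 1.29 to 1.83. Its transcript lies in the middle GC quintile, and after GC correction it was 1.57-fold higher (adjusted p = 4.80e-08). HES1 reads per NOTCH1 read were 1.10, 1.06 and 0.991 in the propionate libraries and 0.553, 0.591 and 0.643 in the control libraries, a ratio chosen after the values were seen and not tested.

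HES2, a repressor of the same family that is less studied, had 132, 180 and 148 reads in the propionate libraries and 17 reads in each of the 3 control libraries. It averaged 12.4 ± 2.12 CPM with propionate and 1.45 ± 0.0350 CPM in control (SD, n = 3 each). No propionate library came near the control level, and the log2 fold change was 3.09 (SE 0.237, edgeR adjusted p = 2.04e-08) with a 95% interval of the fold from 6.02 to 12. It ranked 38 among the 13605 genes in order of fold change from the highest. HES2 was 7.72-fold higher after GC correction (adjusted p = 7.44e-11), and its log2 fold change ran from 2.95 to 3.20 over the 19 alternatives.

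HES4, a HES gene that humans have and mice lack, was at 92.8, 83.4 and 65.5 CPM in the propionate libraries and at 52.8, 47.6 and 34.0 CPM in the control libraries. Library 1 was highest and library 3 lowest in both groups, and the groups did not overlap. HES4 was 1.80-fold higher (log2 fold change 0.85, SE 0.140, edgeR adjusted p = 0.000107). Its transcript had the highest GC content of the 10, 73.9%, and after GC correction the log2 fold change was 0.44 (1.36-fold, adjusted p = 1.87e-05).

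HES6, which in mouse and frog promotes neuronal differentiation, had 2674, 2621 and 2652 reads in the propionate libraries and 3289, 3651 and 3752 reads in the control libraries. It was at 207.4, 210.7 and 224.4 CPM with propionate and at 287.6, 312.4 and 312.7 CPM in control, and every propionate library lay below every control library. HES6 fell by 0.51 on the log2 scale (SE 0.0788, edgeR adjusted p = 6.09e-05), which is 1.42-fold lower with propionate. HES6 also lies in the top GC quintile, and it was 1.78-fold lower after GC correction (log2 fold change -0.83, adjusted p = 1.13e-12). Reads of HES1 per read of HES6 were 0.464, 0.383 and 0.473 in the propionate libraries and 0.185, 0.180 and 0.237 in the control libraries, again a description with no test.

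**Figure D3:**
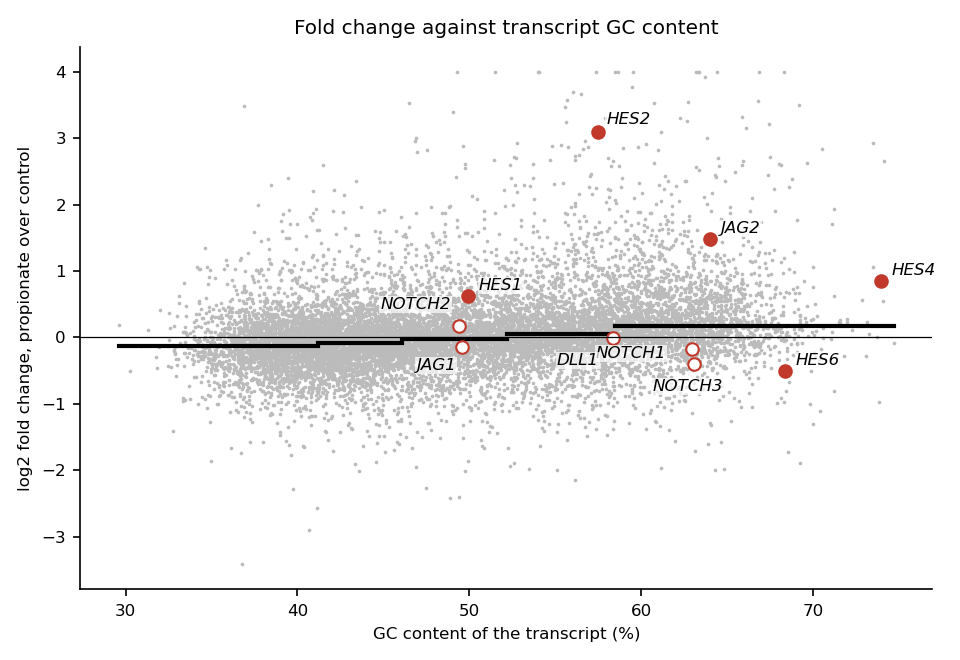
Log2 fold change of propionate over control (y axis) against the GC content of the transcript in percent (x axis) for the tested genes with a reference transcript (grey) and the 10 genes (red circles, filled where called). Black lines are the median of each GC quintile, and values beyond 4 are drawn at 4. In the top quintile HES6 lies below the median and HES4 above it, and HES1 lies in the middle quintile with JAG1 and NOTCH2.

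NRARP, a feedback inhibitor that Notch induces, and HES5 rose. The list held 8 genes, NRARP and 7 more of the HES and HEY family, and of these 3 were tested, 2 were higher and 0 were lower, where 17.2% and 17.0% of all tested genes were. HEY2 was the tested gene that missed the threshold, and the unadjusted p of all 3 was at most 0.0330. NRARP was at 113.3, 111.6 and 112.5 CPM in the propionate libraries and at 71.5, 61.6 and 63.0 CPM in the control libraries, 1.72-fold higher (log2 SE 0.0881, adjusted p = 1.74e-06). HES5 was at 11.9, 10.8 and 9.48 CPM with propionate and at 4.29, 4.02 and 3.42 CPM in control, 2.74-fold higher (log2 SE 0.20, adjusted p = 1.64e-05). In both genes the groups lay apart. After GC correction NRARP was 1.39-fold and HES5 2.24-fold higher, and both still passed. HEY2 had 33, 25 and 28 reads in the propionate libraries and 7, 11 and 24 reads in the control libraries (log2 fold change 0.95, adjusted p = 0.0834, and 0.0492 with the replicate block). After GC correction HEY2 passed on the whole transcript (log2 fold change 1.08, adjusted p = 0.0373) and on the last 500 bases (1.14, adjusted p = 0.0281). It passed in 4 of 19 alternatives, and its adjusted p reached 0.284 in another. Without control library 3 its log2 fold change was 1.56 (adjusted p = 0.0176). HES3 and HELT had no read in any library.

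The genes of the nuclear complex that carries the Notch signal were lower in part. Of 11 tested genes 1 was higher and 5 were lower, against 17.2% and 17.0% of all tested genes, and the median log2 fold change was -0.13. With the replicate block 2 were higher and 5 lower, where 21.9% and 22.6% of all tested genes were. After GC correction on the whole transcript 2 were higher and 4 lower, where 2955 and 2959 of all 13605 tested genes were. On the last 500 bases 2 were higher and 5 lower, where 2928 and 3034 of all tested genes were. The median over the list was -0.10 on the whole transcript and -0.03 on the last 500 bases. The acetyltransferase genes CREBBP and EP300, general coactivators that Mastermind recruits, fell, to 36.7 CPM with propionate against 78.1 CPM in control for CREBBP and to 71.7 CPM with propionate against 134.6 CPM in control for EP300 (2.13-fold and 1.88-fold lower, edgeR adjusted p = 1.31e-07 and 4.59e-07). KAT2A, another acetyltransferase, was 1.34-fold lower and SNW1, a protein that binds the Notch complex, was 1.30-fold lower (adjusted p = 0.00164 and 0.00174). RBPJ, named here after its value was seen, was at 153.8, 156.7 and 169.4 CPM in the propionate libraries and at 173.0, 200.1 and 203.7 CPM in the control libraries (1.20-fold lower, adjusted p = 0.0217). RBPJ missed the threshold after GC correction on the whole transcript (log2 fold change -0.10, adjusted p = 0.144) but passed on the last 500 bases (-0.14, adjusted p = 0.0416). It also missed the threshold when any of propionate libraries 1 and 2 and control libraries 2 and 3 was left out (adjusted p between 0.0700 and 0.0823). MAML2, a Mastermind coactivator, was 1.5-fold higher (adjusted p = 0.0225), and this call was lost when any of propionate libraries 1 and 3 and control libraries 1 and 3 was left out (adjusted p between 0.0504 and 0.117).

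Among 15 tested corepressors of RBPJ and of the HES proteins 1 was higher and 2 were lower, against 17.2% and 17.0% of all tested genes, with a median log2 fold change of 0.03. With the replicate block 3 were higher and 2 lower, where 21.9% and 22.6% of all tested genes were. After GC correction on the last 500 bases 2 were higher and 1 lower, where 2928 and 3034 of all 13605 tested genes were. TLE3, a Groucho-type corepressor that HES proteins bind through their last residues, was at 92.2 ± 4.48 CPM with propionate and 59.1 ± 7.57 CPM in control (SD, n = 3 each), 1.56-fold higher (edgeR adjusted p = 5.80e-05). CTBP1, a corepressor of many factors, was 1.41-fold lower (adjusted p = 9.96e-05). CIR1, a corepressor of RBPJ, was 1.26-fold lower (adjusted p = 0.0150), and this was lost without propionate library 1 (adjusted p = 0.0778), without control library 1 (adjusted p = 0.0719) and after GC correction (adjusted p = 0.102).

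Among the proteases that mature and cut the receptor, FURIN rose and NCSTN was lower in a call that depended on single libraries. FURIN, the convertase that cleaves the receptor on its way to the surface, was 1.69-fold higher (54.5 CPM with propionate and 32.3 CPM in control, edgeR adjusted p = 7.86e-06). NCSTN, the gamma-secretase subunit nicastrin, was 1.40-fold lower (adjusted p = 0.0196), a call lost without propionate library 2 (log2 fold change -0.32, adjusted p = 0.117) and without control library 3 (-0.31, adjusted p = 0.127).

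Enzymes that put sugars on the receptor had 2 higher and 2 lower of 8 tested, near the shares of 17.2% and 17.0% over all tested genes, with a median log2 fold change of -0.11. After GC correction on the whole transcript 1 was higher and 3 were lower, where 2955 and 2959 of all 13605 tested genes were. On the last 500 bases 1 was higher and 1 lower, where 2928 and 3034 of all tested genes were. Fringe enzymes extend the fucose on the receptor and shift which ligands it answers to. LFNG, the Fringe gene with the most reads, was at 140.5, 139.4 and 137.4 CPM in the propionate libraries and at 144.7, 149.9 and 147.3 CPM in the control libraries. All its propionate libraries were lower by a little, and it was not called (log2 fold change -0.08, SE 0.0775, edgeR adjusted p = 0.443). Another Fringe gene, MFNG, had 20, 63 and 35 reads in the propionate libraries and 3, 7 and 5 reads in the control libraries. Its log2 fold change was 2.87 (SE 0.509, edgeR adjusted p = 0.000226). The Fringe gene RFNG was 1.33-fold higher (adjusted p = 0.00520), which did not pass after GC correction (1.10-fold, adjusted p = 0.183). EOGT, which adds N-acetylglucosamine to the receptor, was 1.74-fold lower (adjusted p = 0.00490). GXYLT1, a xylosyltransferase for the same repeats, was 1.22-fold lower (adjusted p = 0.0397), and it missed the threshold in 10 of 19 alternatives, among them those without propionate library 1, propionate library 3, control library 1 and control library 2 (adjusted p between 0.0893 and 0.163).

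The ubiquitin ligases and endocytic adaptors that act on Notch ligands and receptors had 11 of 17 tested genes higher and 1 lower, where 17.2% and 17.0% of all tested genes were. The median log2 fold change was 0.42 over this list and -0.01 over all genes. This list too was chosen with earlier results known, and its excess was not tested. After GC correction the counts were also 11 and 1, where 2955 and 2959 of all 13605 tested genes were, and the median over the list was 0.30. NUMBL, a relative of the Notch inhibitor NUMB, was at 21.3, 21.6 and 20.3 CPM in the propionate libraries and at 8.75, 9.07 and 8.58 CPM in the control libraries, 2.40-fold higher (edgeR adjusted p = 1.65e-06). EPN2, an epsin adaptor of ligand endocytosis, was 1.54-fold higher, the Deltex ligase gene DTX2 1.49-fold and the ligase gene NEDD4L 1.34-fold (adjusted p = 0.000539, 0.000315 and 0.000573). DTX3L, a Deltex-type ligase that works with PARP9, was the member that fell, 1.64-fold (adjusted p = 1.40e-05). DTX3L and PARP9 share exon sequence on opposite strands in GENCODE release 29, as do RFNG and GPS1, NCSTN and COPA, SNW1 and SLIRP, and CTBP1 and CTBP1-AS. JAG1, EP300, EPN2, NEDD4L, MAML2 and EOGT each share exon sequence with an unnamed transcript on the opposite strand. JAG2, KAT2A and EPN2 share it with one on their own strand, and DTX2 shares it with FDPSP2 on the opposite strand. With no strand setting stated for the counting, reads of such pairs cannot be told apart with certainty.

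**Figure D4:**
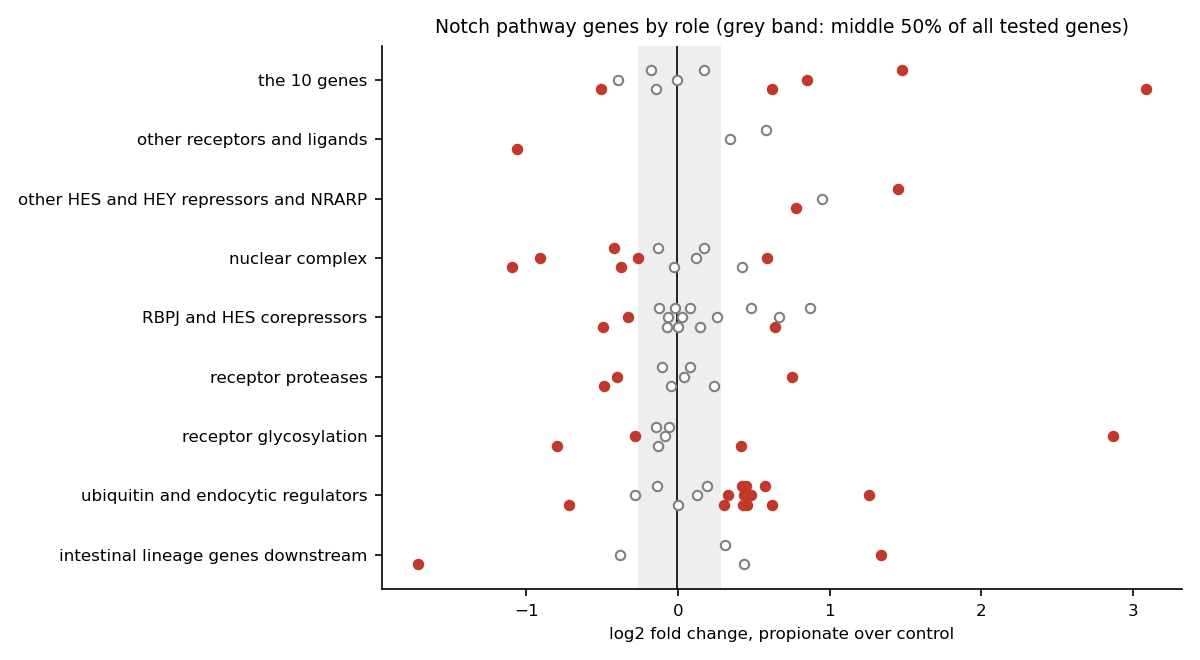
Log2 fold change of propionate over control (x axis) for the tested genes of each Notch list (rows), filled red where the adjusted p was under 0.05. The line and grey band are the median and middle 50% of all tested genes. In the list of ubiquitin and endocytic regulators 11 of 17 genes are called on the right and 1 on the left.

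Of 5 tested intestinal lineage genes downstream of Notch signalling, 1 was higher and 1 was lower, near the shares of 17.2% and 17.0% over all tested genes. ATOH1, the secretory lineage factor that HES1 represses, had no read in any library, and neither had NEUROG3 and NEUROD1 of the enteroendocrine lineage, where 3 reads would be 0.235 to 0.259 CPM. KLF4, a factor of goblet cell differentiation, was at 11.6, 10.8 and 9.73 CPM in the propionate libraries and at 4.29, 4.19 and 4.17 CPM in the control libraries (2.53-fold higher, edgeR adjusted p = 2.43e-05). INSM1, an enteroendocrine factor, had 7, 11 and 11 reads with propionate and 19, 39 and 33 reads in control (3.28-fold lower, adjusted p = 0.00335). SPDEF, which acts below ATOH1 in goblet cells, was at 5.59, 5.14 and 5.59 CPM with propionate and at 2.97, 4.88 and 4.17 CPM in control (log2 fold change 0.44, adjusted p = 0.175).

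**Figure D5:**
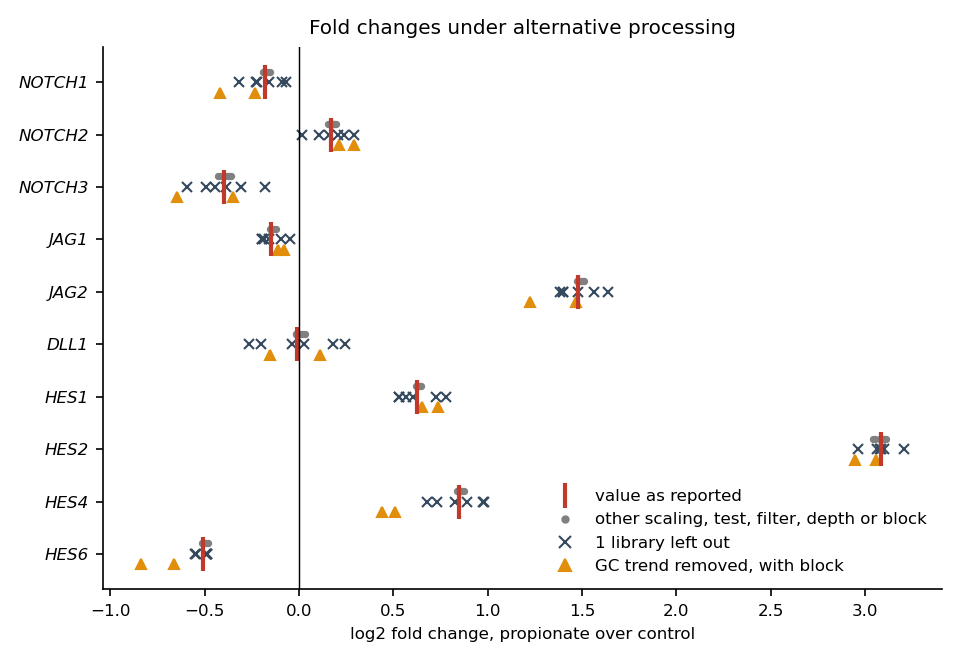
Log2 fold change of propionate over control (x axis) of the 10 genes as reported (red bars), with another scaling, test, filter, depth or the replicate block (grey dots), with 1 library left out (crosses) and after GC correction on the transcript or on its last 500 bases (orange triangles). JAG2, HES1, HES2 and HES4 stay right of 0 and HES6 stays left of 0 in all 19 alternatives, and DLL1 lies on both sides. Alternatives that changed only the threshold are among the grey dots and have the reported value.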

How the data were processed

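Sequencing libraries came from total RNA of LS 174T cells, 500 ng each, and a Lexogen Quant-Seq kit, per the labels' protocols. The catalogue number given with it may be that of a different kit, so whether reads come from transcript ends only, and which GC correction is apt, is uncertain. Per the submitters' processing notes, Bowtie2, edgeR and hg19 or GRCh37 were used, without version or role. Which read counter, annotation and strand setting applied is not given in the sources used here. The authors deposited raw counts by gene symbol, 1 table of 25737 lines per library, and the 286 symbols on several lines were summed. No molecular identifiers are recorded, so intervals from reads cover counting error only.

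Counts were tested with edgeR 4.0.16 in R 4.3.3 (quasi-likelihood F test, TMM factors, filterByExpr, prior count 0.125, 3 propionate against 3 control libraries, no covariate), adjusted by Benjamini-Hochberg over all 13605 genes, with the threshold at 0.05. Standard errors were the log2 fold change over the root of F, and intervals are at 95%. Within a group the chi-square per degree of freedom between libraries was 6.01 to 8.85, above sampling noise. The test was checked on simulated counts.

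Replicate numbers were read from marks (primes) in the sample titles. For libraries with the same number, deviations from the group means had correlations of 0.238, 0.393 and 0.440 over 9286 genes above 10 CPM. All exceeded 0.1, and the numbers were therefore used as pairs in the fits with the replicate block. The main fit ignored the pairs, as do the p-values, standard errors, intervals and calls not marked as blocked or GC-corrected. This pairing rests on the data, and no label states a shared day.

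As alternatives, DESeq2 1.42.0, limma-voom from limma 3.58.1, other scaling factors, filters and thresholds, thinning, leaving out each library, and the replicate block alone or with GC correction were run. The GC trend of each library was a spline (4 degrees of freedom) over transcript GC from GENCODE release 29, known for 93.4% of tested genes and for all 10 genes described. The version on the last 500 bases was chosen after seeing the data. Named genes were the 10 genes, up to 4 called genes per direction and list with the smallest p, genes of lists of 9 or fewer, and those said to be chosen later. The 10 genes and the lists were chosen with earlier results of these data known. Some results of the protease list are not reported here.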

Additional observations from a re-analysis of the deposited data

How the results depend on the processing

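JAG2, HES1, HES2 and HES4 were higher and HES6 was lower in each of the 19 alternatives. The 5 calls held at an adjusted p of 0.05 in each of them. The alternatives with an adjusted p of 0.01 or a required 2-fold change altered only the threshold. Their fold changes and adjusted p are those of the main fit and could not differ from it. With a 2-fold change required beside an adjusted p of 0.05, 2 of the 10 genes were higher and 0 lower, since HES1, HES4 and HES6 changed by less. Then 4 of 70 tested pathway genes outside the 10 were higher and 3 lower, and of all 13605 tested genes 681 were higher and 270 lower. At an adjusted p of 0.01, 1424 genes were lower over all genes. The count of lower genes among the 10 was 2 with the replicate block, 2 with the block and the transcript GC trend removed and 2 with the block and the GC trend of the last 500 bases removed, NOTCH1 being the added gene. Leaving out 1 library gave 1 to 2 lower genes among the 10. The log2 fold change of DLL1 turned positive with upper-quartile factors (0.016), with library totals (0.0082), after thinning (0.033) and with the GC trend of the last 500 bases removed in the blocked fit (0.11), and ran from -0.26 to 0.24 with 1 library left out. The cause was not tested. With the replicate block 25 of 70 tested pathway genes outside the 10 were higher and 15 lower, against 19 and 14 without it. Over all tested genes 21.9% were higher and 22.6% lower with the block, and 17.2% and 17.0% without it. The median log2 fold change over all genes lay between -0.01 and 0.02 in every alternative. Depth limits NOTCH3, which had 13 to 26 reads a library.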

Other observations

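OLFM4, a marker of intestinal stem cells that Notch signalling raises in the crypt, moved with the library number. It was at 107.0, 239.1 and 301.5 CPM in the propionate libraries and at 137.3, 354.3 and 352.5 CPM in the control libraries, so that library 1 was low in both groups. OLFM4 was lower with propionate in all 3 pairs of the same number. It did not pass the edgeR test without pairing (log2 fold change -0.38, SE 0.285, adjusted p = 0.323) and passed with the replicate block (-0.38, SE 0.0586, adjusted p = 5.65e-06), without control library 1 (-0.72, adjusted p = 0.0138) and with no filter beyond 1 read (-0.39, adjusted p = 8.07e-05). With GC correction in the blocked fit it was -0.26 (adjusted p = 0.000830), and without propionate library 1 it was -0.061 (adjusted p = 0.884).

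APH1B, a variable subunit of gamma-secretase, had 36 reads over the propionate libraries and 4 over the control libraries, too few to be tested. Per read of the library totals this was an 8.60-fold ratio (exact binomial 95% interval 3.08 to 33.3, counting error only).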
